A study of Mus musculus with 6 samples.

Results

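The genes of the urea cycle, with the mitochondrial carriers and the glutamine enzymes that work beside it, were followed in primary murine hepatocytes with and without forced expression of Aloxe3. The set was a list of 10 genes written by name, and 9 of them are described here, Nags, Cps1, Otc, Ass1, Asl, Slc25a13, Slc25a15, Glul and Gls2. All 9 were found among the 41388 genes of the RPKM table (reads per kilobase scaled to library depth, a measure of level that can be compared between genes). Each had a mean of at least 0.5 RPKM over the 6 libraries and was tested. The hepatocytes came from C57BL/6J mice and were taken 24 h after adenovirus was added at about 1000000 viral particles per 1000000 cells. In 3 libraries (replicates 1, 2 and 3) the virus encoded β-gal, a bacterial enzyme used as the control, and in the other 3 (replicates 7, 8 and 9) it encoded Aloxe3, a lipoxygenase family member best known from the epidermis. All cells of both groups had thus been isolated by collagenase digestion, kept overnight in culture and exposed to adenovirus, and no library was from cells without virus. The labels do not say whether the libraries of a group came from separate animals or cultures, so p-values measure the spread between these libraries, which may be technical.

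The urea cycle turns ammonia, the toxic nitrogen left over when amino acids are burned, into urea that the kidney can excrete, and the hepatocyte is the cell where the whole cycle runs. Its first steps take place in the mitochondrion and its later ones in the cytosol, so that carriers in the inner mitochondrial membrane have to move ornithine, citrulline and aspartate between them. In the liver lobule the cycle and the glutaminase Gls2 are strongest around the portal vein, while glutamine synthetase (Glul) is kept to the last cells around the central vein, where it traps the ammonia that the cycle let pass.

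Aloxe3 was higher in every library that received its virus. The gene (chr11:69125896-69149115, GRCm38, plus strand) stood at 2.04, 2.06 and 1.74 RPKM in the β-gal libraries and at 42.3, 45.8 and 56.3 RPKM in the Aloxe3 libraries, a log2 fold change of 4.05 (SE 0.1, limma, Benjamini-Hochberg adjusted p = 4.74e-06). The libraries held 25521908 to 32431318 reads, all from a single sequencing run. Aloxe3 replicate 9 lay farthest from the others of its group, and the members, and calls lost without it, are also given with it left out. Alb, the most abundant hepatocyte marker, was at 4520 ± 26 RPKM (SD, n = 3) with β-gal and 4440 ± 77 with Aloxe3, and the summed level of 10 hepatocyte markers ran from 5610 to 5630 RPKM with β-gal and from 5570 to 5750 with Aloxe3. Alb makes up most of these sums. Of the 10, 2 passed in limma, as did 0.394% of all 12693 genes tested: Fgb, a fibrinogen chain, rose from 305 ± 11 to 476 ± 23 RPKM (adjusted p = 0.00507), and Ttr, transthyretin, fell from 124 ± 6.5 to 100 ± 1.1 RPKM (adjusted p = 0.0448). Groups were apart for 5 of the 10, 2 higher with Aloxe3 (11.2% of all genes) and 3 lower (8.71%), and Fgb was past the threshold and Ttr was not with any 1 of the 6 libraries left out. With no filter on low values neither passed. Within that list the drug-metabolizing enzyme Cyp3a11 was below 1 RPKM in both groups (0.609 and 0.688 RPKM), and Asgr1 was at 1.65 and 1.88 RPKM. Cyp7a1, the rate-limiting enzyme of bile acid synthesis, was listed at 0 in all 6 libraries. Markers of other liver cells were found in both groups. The 10 Kupffer cell markers summed to 160 to 166 RPKM with β-gal and 141 to 155 with Aloxe3, mostly from Cd68 (148 and 133 RPKM, unadjusted p = 0.00938, adjusted p = 0.262 in limma). These sums did not overlap between groups and were lower with Aloxe3, and 6 of the 7 markers tested had a negative log2 fold change. That count depended on the libraries: it was 3 without β-gal replicate 1, 4 without Aloxe3 replicate 8, and 6 or 7 with any other left out. Clec4f (0.0470 and 0.0705 RPKM) and Vsig4 (0.0506 and 0.0428 RPKM), which define resident macrophages, were near 0. Others of the list were present in both groups, among them Lyz2 (7.96 and 7.48 RPKM), Adgre1 (1.67 and 1.56), C1qa (1.64 and 1.34), Csf1r (1.38 and 1.47), Marco (0.943 and 0.911) and Cd5l (0.758 and 0.548). The 10 endothelial markers summed to 42.3 to 48.0 and 41.8 to 47.3 RPKM, and the 10 stellate cell markers to 5.50 to 5.99 and 5.33 to 5.63 RPKM with Lrat at 0. The 6 cholangiocyte markers summed to 1510 to 1590 and 1580 to 1720 RPKM, mostly from Spp1. Of these, Krt19 (42.9 and 38.5 RPKM) and Sox9 (41.5 and 43.0) were also above the highest member, Glul (mean 26.1 RPKM), while 3 had a mean below 1 RPKM. The part of other liver cells in the results below was not tested. In these bulk libraries fewer cells of a type and less RNA per cell cannot be told apart.

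The members spanned a wide range of levels, and some of the best known enzymes of the cycle were among the lowest. Glul was highest, at a mean of 26.1 RPKM over all libraries (rank 2267 of the 24989 genes above 0), followed by Asl at 21.7, Slc25a13 at 18.2, Ass1 at 12.1, Gls2 at 8.07, Slc25a15 at 5.53 and Nags at 4.57 RPKM. Otc was at 1.33 RPKM (rank 10471) and Cps1 at 1.24 RPKM (rank 10599). Neighbours in this order were apart in all 6 libraries with 2 exceptions. Slc25a15 and Nags overlapped in range, although Slc25a15 was the higher in each of the 6 libraries, and Otc was above Cps1 in 3 of 3 β-gal libraries but below it in 3 of 3 Aloxe3 libraries. The 10 genes of the list together took 341 to 348 of every 1000000 reads with β-gal and 333 to 352 with Aloxe3, so that their pooled share of the library overlapped between groups. This share is not adjusted for gene length. It rests mostly on genes such as Asl (2488 to 3293 reads a library) and Glul (2182 to 2788). With 164 to 232 reads for Cps1 and 136 to 197 for Otc, it could hardly show a shift in either.

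**Figure D1:**
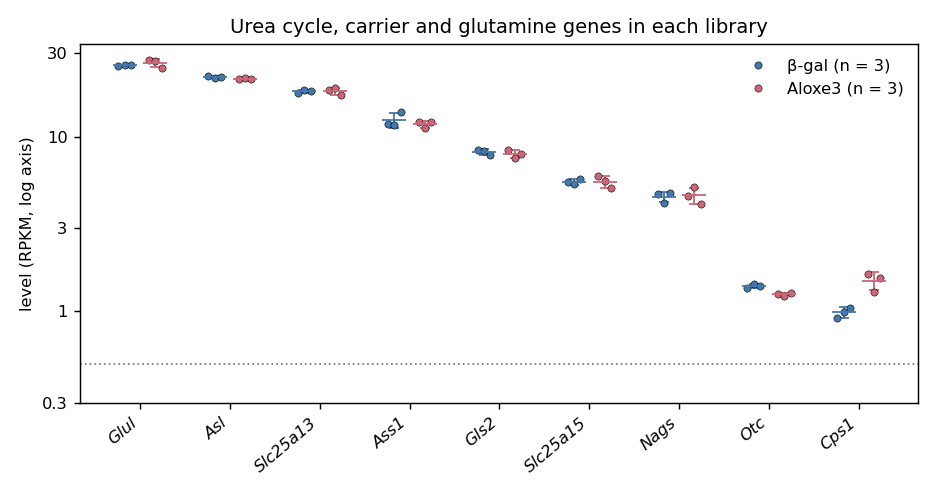
Level of each member in RPKM (log axis), ordered by its mean over all 6 libraries, with a point for each library, a horizontal bar for the group mean and whiskers of 1 SD (n = 3 per group); the dotted line marks 0.5 RPKM, the lowest mean tested. Cps1 and Otc sit side by side near 1 RPKM with their groups apart in opposite directions, Asl is apart by a smaller margin, and the groups of the other 6 genes overlap.

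The stretches just upstream of the start sites differ in composition, and those of Glul, the highest member, and Otc, the lowest with an entry in the RefSeq promoter table (GRCm38.p6), are shown to let both ends of the order of levels be seen. Entries were found for 6 of these members, Nags, Otc, Ass1, Slc25a13, Slc25a15 (2 starts) and Glul; those for Cps1, Asl and Gls2 were missing. Each run gives the 250 bases before the start on the gene's strand, 5′ to 3′, with capitals where CCAAT or GGGCGG, or their reverse complements, were found; these motifs do not overlap one another here.
Glul (chr1:153899679-153899928, plus strand): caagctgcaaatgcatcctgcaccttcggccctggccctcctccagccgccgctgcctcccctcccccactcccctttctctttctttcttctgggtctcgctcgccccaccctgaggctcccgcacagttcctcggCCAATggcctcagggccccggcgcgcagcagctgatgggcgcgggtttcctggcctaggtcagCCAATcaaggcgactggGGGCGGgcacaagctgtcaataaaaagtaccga
Otc (chrX:10252055-10252304, plus strand): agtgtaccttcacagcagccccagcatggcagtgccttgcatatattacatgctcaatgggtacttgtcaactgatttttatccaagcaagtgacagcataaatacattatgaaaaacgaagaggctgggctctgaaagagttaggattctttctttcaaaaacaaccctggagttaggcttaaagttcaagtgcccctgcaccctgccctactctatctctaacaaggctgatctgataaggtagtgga
The Glul stretch was 64.8% G and C with 15 CpG pairs, and it held 2 matches to CCAAT, the nearer of which ended 45 bases before the start, and 1 to GGGCGG that ended 27 bases before it. The Otc stretch was 43.6% G and C with a single CpG and held neither motif. Over all 32851 promoters used for comparison the medians were 52.4% and 6 CpG pairs, CCAAT was present in 33.8% and GGGCGG in 32.7%. Those of Nags (55.6%, 11 CpG), Slc25a13 (62.8%, 11), Ass1 (75.6%, 23) and the starts of Slc25a15 (80.4%, 43 and 57.6%, 11) lay above both medians. GGGCGG also occurred in Nags, Ass1 and both Slc25a15 stretches, and CCAAT in that of Slc25a13. TATAAA, present in 12.4% of promoters, was in none of the 7. A match or its absence describes these letters and no more.

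Forced expression of Aloxe3 left no member past the threshold in the limma fit over all genes (adjusted p under 0.05 over 12693 genes), where 50 genes, or 0.394% of those tested, passed. Among the 9 members tested, 1 had an unadjusted p under 0.05 with the higher level in the Aloxe3 group, Cps1, against 7.31% of all genes, and 0 had one with the lower level, against 5.42%. Groups did not overlap for 1 member that was higher with Aloxe3 (Cps1, background 11.2% of genes) and for 2 that were lower (Otc and Asl, background 8.71%). The median log2 fold change of the 9 was -0.001, beside 0.005 over all genes tested. Without Aloxe3 replicate 9 the median was 0.034 (0.012 over all genes), 0 members passed in limma, and 2 of the 9 had an unadjusted p under 0.05, Cps1 and Glul, both higher, beside 7.46% of all genes higher and 4.75% lower in that fit. The log2 fold changes were then 0.308 for Cps1, 0.083 for Nags, 0.082 for Glul, 0.052 for Slc25a15, 0.034 for Slc25a13, -0.033 for Gls2, -0.036 for Asl, -0.079 for Ass1 and -0.095 for Otc. With any other library left out the median ran from -0.039 to 0.007, and 1 member, Cps1, was higher at an unadjusted p under 0.05 and 0 lower. Over all genes these shares were 5.17% to 7.47% higher and 2.99% to 6.96% lower. The unadjusted limma p of Glul was 0.453 to 0.807 in those fits.

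Nags makes N-acetylglutamate, without which Cps1 is inactive. Its level (chr11:102145513-102149477, plus strand) was 4.67, 4.19 and 4.73 RPKM with β-gal and 4.60, 5.12 and 4.12 RPKM with Aloxe3. The lowest and the highest library were both in the Aloxe3 group, and the log2 fold change was 0.02 (SE 0.074, 95% interval -0.15 to 0.19, limma adjusted p = 0.939). Of the 50-base windows in its transcripts 13.5% also occur in Gm11586, which was itself at 0.113 and 0.193 RPKM, so its level is uncertain to the extent that ambiguous reads were left uncounted.

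Cps1, carbamoyl phosphate synthetase 1, joins ammonia and bicarbonate in the mitochondrial matrix and sets the pace of the cycle. It lies at chr1:67123026-67231259 on the plus strand. Its level was 0.915, 0.988 and 1.05 RPKM in the β-gal libraries and 1.64, 1.29 and 1.56 RPKM in the Aloxe3 libraries, resting on 164 to 178 reads and 218 to 232 reads. All 3 Aloxe3 libraries were above all 3 β-gal libraries, and the means of 0.985 ± 0.069 and 1.5 ± 0.18 RPKM (SD, n = 3) stood in a ratio of 1.52. The log2 fold change was 0.33 (SE 0.073, 95% interval 0.16 to 0.50), taken as log2(RPKM + 1), which shrinks differences at levels near 1 RPKM. Its unadjusted p was 0.0022 and its adjusted p 0.161 in limma, and the exact permutation test gave 0.1, the smallest value that 3 against 3 allows. The difference did not pass the threshold as tested here, and did so when limma's voom was run on the reads derived from the RPKM values (log2 fold change 0.589, adjusted p = 0.0138). Over the planned ways of processing the adjusted p ran from 0.0138 to 0.49, with the value above 0 in each. In voom, the adjusted p was 0.0801 without β-gal replicate 1, 0.0613 without β-gal replicate 2 or without Aloxe3 replicate 7, and 0.00528 to 0.0467 with any of the other 3 libraries left out.

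The level of Cps1 was far below that of Alb in every library. The ratio of Alb to Cps1 was 4970, 4580 and 4270 in the β-gal libraries and 2730, 3500 and 2800 in the Aloxe3 libraries. These ratios did not overlap between groups. Alb itself differed by only -0.03 (log2, SE 0.046, limma adjusted p = 0.855), so the ratios restate the difference in Cps1 and add no separate result.

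Otc, ornithine transcarbamylase, uses the product of Cps1 to make citrulline in the same compartment. At chrX:10252305-10321024 on the plus strand, it was at 1.36, 1.43 and 1.4 RPKM with β-gal and 1.26, 1.23 and 1.27 RPKM with Aloxe3, from 136 to 197 reads. Each Aloxe3 library was below each β-gal library, opposite in sign to Cps1, by a margin of 1.4 ± 0.037 against 1.25 ± 0.017 RPKM. The log2 fold change was -0.09 (SE 0.053, 95% interval -0.21 to 0.03) and did not pass (limma adjusted p = 0.525).

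Ass1, argininosuccinate synthase, brings in the second nitrogen of urea from aspartate in the cytosol. Located at chr2:31470207-31520672 on the plus strand, it was read at 11.9, 11.6 and 13.8 RPKM with β-gal and 12.2, 11.2 and 12.1 RPKM with Aloxe3. The groups overlapped, with β-gal replicate 3 above the rest, and the log2 fold change was -0.06 (SE 0.067, 95% interval -0.22 to 0.09, limma adjusted p = 0.73). Of its windows 38.6% also occur in Gm5424, a copy elsewhere that was itself at 0.274 and 0.236 RPKM in the 2 groups, so its level is uncertain to the extent that reads shared with the copy were dropped.

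Asl, argininosuccinate lyase, splits off arginine and fumarate. Its values (chr5:130011258-130029247, minus strand) were 22.4, 21.7 and 22.1 RPKM with β-gal and 21.4, 21.6 and 21.3 RPKM with Aloxe3. The groups were apart by a narrow margin, and the log2 fold change was -0.04 (SE 0.032, 95% interval -0.12 to 0.04, limma adjusted p = 0.639). With 2488 to 3293 reads per library, Asl was the most deeply read member, and the interval allows a fold on the RPKM + 1 scale between 0.923 and 1.02.

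Slc25a13, also called citrin, carries aspartate out of the mitochondrion for Ass1. At chr6:6041218-6217173 on the minus strand it was at 17.9, 18.6 and 18.2 RPKM with β-gal and 18.5, 18.9 and 17.3 RPKM with Aloxe3. Slc25a15, the ornithine and citrulline carrier (chr8:22375551-22398597, minus strand), was at 5.49, 5.34 and 5.76 RPKM with β-gal and 5.97, 5.57 and 5.07 RPKM with Aloxe3. In both genes the highest and the lowest library belonged to the Aloxe3 group, with replicate 9 the lowest. The log2 fold change of Slc25a13 rounded to 0.00 (SE 0.042, 95% interval -0.10 to 0.10, limma adjusted p = 1.0). That of Slc25a15 rounded to 0.00 as well (SE 0.059, 95% interval -0.14 to 0.14, limma adjusted p = 0.997).

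Glul, which fixes ammonia into glutamine, was at 25.5, 25.9 and 25.7 RPKM with β-gal and 27.5, 27.0 and 24.8 RPKM with Aloxe3 (chr1:153899944-153909723, plus strand). Replicates 7 and 8 of the Aloxe3 group were above every β-gal library and replicate 9 was below every one. The log2 fold change was 0.04 (SE 0.044, 95% interval -0.06 to 0.14, limma adjusted p = 0.752), and 0.082 without Aloxe3 replicate 9, where it did not pass either (limma unadjusted p = 0.0317, adjusted p = 0.373). Of its windows 12.6% occur in other transcripts, among them the pseudogene Glns-ps1, whose group means were 0.0285 and 0.0791 RPKM.

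Gls2, the liver glutaminase that sets ammonia free from glutamine inside the mitochondrion, was at 8.39, 8.29 and 7.84 RPKM with β-gal and 8.39, 7.56 and 7.97 RPKM with Aloxe3 (chr10:128194457-128210004, plus strand). The groups overlapped, and the log2 fold change was -0.03 (SE 0.049, 95% interval -0.15 to 0.08, limma adjusted p = 0.818).

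**Figure D2:**
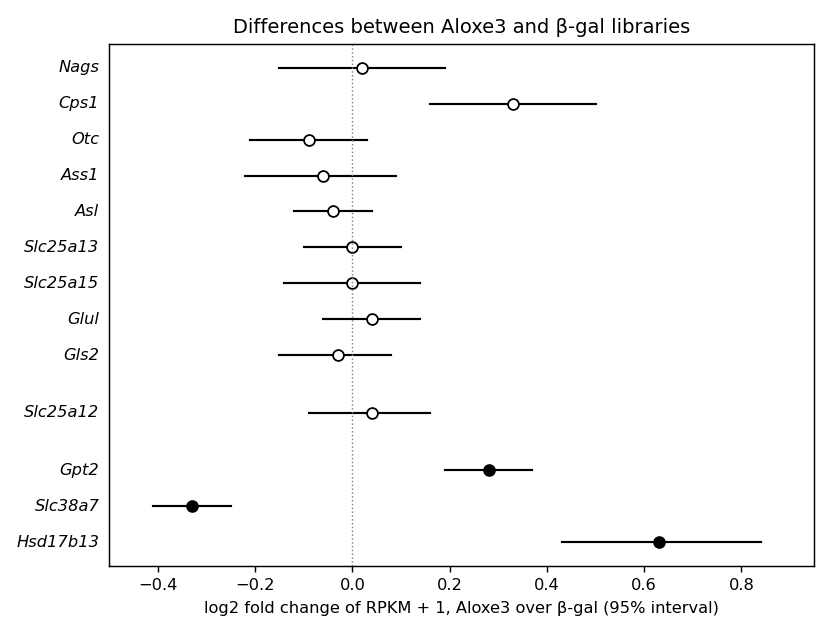
Log2 fold change of RPKM + 1, Aloxe3 over β-gal (n = 3 per group), with 95% intervals from limma; filled symbols are past an adjusted p of 0.05. The members are at the top, then the isoform Slc25a12, then Gpt2, Slc38a7 and Hsd17b13, and the open symbol of Cps1 at 0.33 stands apart from those of the other members, between -0.09 and 0.04.

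Ratios within a library do not depend on its depth or scaling. The groups did not overlap for Cps1 to Otc, which was fixed by their own groups being apart in opposite directions. Nor did they for Asl to Otc, where both genes were themselves lower with Aloxe3. How often ratios of other gene pairs are apart was not examined. The ratio of Cps1 to Otc, neighbours in the pathway, was 0.673, 0.69 and 0.75 in the β-gal libraries and 1.3, 1.05 and 1.23 in the Aloxe3 libraries. The groups did not overlap, with means of 0.704 ± 0.041 and 1.19 ± 0.13 (SD, n = 3). The ratio of Gls2 to Glul, the enzymes that open and close the glutamine loop, was 0.318 ± 0.012 with β-gal and 0.302 ± 0.021 with Aloxe3, and overlapped. The ratio of Asl to Otc was 16.5, 15.2 and 15.7 with β-gal and 17, 17.5 and 16.8 with Aloxe3 (15.8 ± 0.65 and 17.1 ± 0.36), apart by a narrow margin. Slc25a13 to Slc25a15 overlapped and gave 3.30 ± 0.16 and 3.30 ± 0.18. The pairs other than Asl to Otc were listed by their roles with levels of these genes already known. Asl to Otc was not on that planned list. The ratios are given with no test.

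**Figure D3:**
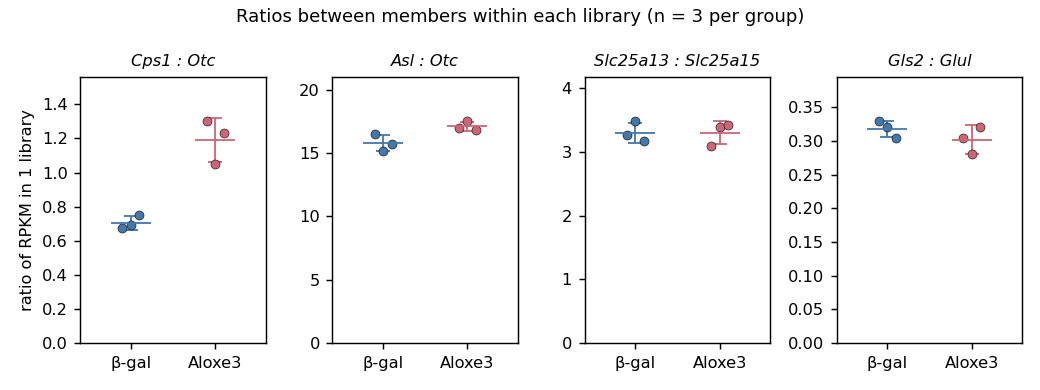
Ratio of the RPKM of 2 members in the same library, with a point for each library, a bar for the group mean and whiskers of 1 SD (n = 3 per group); each panel has its own linear axis from 0. The 3 Aloxe3 libraries lie above the 3 β-gal libraries for Cps1 to Otc and, by a narrow margin, for Asl to Otc, and the groups overlap for Slc25a13 to Slc25a15 and Gls2 to Glul.

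The scatter of replicates, set against that of counting reads alone, differed between members. The chi-square of the derived reads over the libraries of each group, per degree of freedom, would be near 1 for counting error alone, and was 0.0806 for Otc and 0.417 for Asl. It was 1.6 for Gls2, 1.89 for Slc25a13, 2.11 for Slc25a15 and 2.17 for Cps1, and it was highest for Nags (3.05), Glul (3.36) and Ass1 (4.87). Otc and Asl, whose groups were apart by small margins, were thus the members with the closest replicates.

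Slc25a12, the isoform of Slc25a13 known from muscle and brain, was at 4.57 ± 0.11 and 4.71 ± 0.31 RPKM (log2 fold change 0.04, limma adjusted p = 0.817), and Slc25a13 exceeded it by a ratio of 3.77 to 4.13.

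The genes around the cycle were listed by function, 99 genes in 8 lists, of which 85 were tested, and 3 of them passed the threshold, which 0.394% of all genes did. With 1 library left out, 0 to 2 passed. Among 11 tested enzymes of ammonia, glutamate and aspartate, 1 rose and 0 fell (median log2 fold change -0.055), and at an unadjusted p under 0.05 there were 1 higher and 2 lower, beside 7.31% and 5.42% of all genes. With any 1 library left out there were 1 higher and 1 lower, beside 5.17% to 7.47% and 2.99% to 6.96% of all genes. Groups were apart for 1 higher and 3 lower, beside 11.2% and 8.71% of all genes. The gene that rose was Gpt2, the mitochondrial alanine aminotransferase that passes nitrogen from alanine to glutamate. It was at 33.3, 34.1 and 33.5 RPKM with β-gal and 42.2, 41.9 and 39.4 RPKM with Aloxe3, with no overlap (log2 fold change 0.28, SE 0.038, limma adjusted p = 0.0328). Its cytosolic counterpart Gpt was at 8.03 ± 0.47 and 6.92 ± 0.30 RPKM, the opposite sign, and did not pass (log2 fold change -0.19, limma adjusted p = 0.253). Glud1, the glutamate dehydrogenase that releases ammonia for Cps1, was at 104 ± 2.2 and 107 ± 4.7 RPKM (limma adjusted p = 0.7).

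Among 10 tested transporters of glutamine, cationic amino acids, ammonia and urea, 0 rose and 1 fell (median log2 fold change 0.063). At an unadjusted p under 0.05 there were 3 higher genes, Aqp9, Slc1a5 and Slc38a3, and 1 lower, beside 7.31% and 5.42% of all genes, and the groups of the same 4 were apart, beside 11.2% of all genes higher and 8.71% lower. With 1 library left out in turn, 1 to 3 were higher at that p, 1 of them without β-gal replicate 2 or Aloxe3 replicate 7, and 1 was lower, beside 5.17% to 7.47% of all genes higher and 2.99% to 6.96% lower in these fits. The gene that fell was Slc38a7, a glutamine transporter of the lysosomal membrane, at 28.9, 29.6 and 28.8 RPKM with β-gal and 22.4, 23.0 and 23.3 RPKM with Aloxe3 (log2 fold change -0.33, SE 0.034, limma adjusted p = 0.0187). Aqp9, a liver channel for glycerol and urea, was at 5.58 ± 0.27 and 6.54 ± 0.21 RPKM and did not pass (log2 fold change 0.20, limma adjusted p = 0.197). Rhbg, an ammonia channel, was not analysed here. Gpt2 lost its call with no filter (adjusted p = 0.146) and without the variance trend (0.0741), and both genes lost theirs with any library but Aloxe3 replicate 9 left out, where adjusted p ran from 0.112 to 0.142 for Gpt2 and from 0.062 to 0.116 for Slc38a7 in limma, with the same signs.

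None of the 12 tested enzymes of arginine, ornithine and proline passed in limma, and 0 had an unadjusted p under 0.05 (median log2 fold change -0.030). Agmat, which splits agmatine into putrescine and urea, had a log2 fold change of -0.14 (limma adjusted p = 0.535). The 7 tested mitochondrial amino acid carriers gave 0 past the threshold in limma and 0 with an unadjusted p under 0.05 (median -0.019), led by the glutamate carriers Slc25a18 (0.880 ± 0.24 and 1.33 ± 0.36 RPKM, adjusted p = 0.397) and Slc25a22 (16.2 ± 0.15 and 15.6 ± 0.54 RPKM, adjusted p = 0.559). With 1 library left out, 0 to 1 of these enzymes was lower at that p and 0 higher, and 0 to 1 of the carriers lay in each direction.

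Of 21 tested genes of hepatic amino acid catabolism, 0 passed in limma and 2 had an unadjusted p under 0.05, both higher with Aloxe3, beside 7.31% of all genes (median log2 fold change 0.005). That count depended on the libraries: 1 to 3 were higher and 0 to 3 lower with 1 left out, with 1 higher and 3 lower without Aloxe3 replicate 7, 3 and 2 without β-gal replicate 3, and 1 and 1 without β-gal replicate 1 (5.17% to 7.47% of all genes higher and 2.99% to 6.96% lower in these fits). Ftcd, an enzyme of histidine breakdown, was at 1.6, 1.58 and 2.02 RPKM with β-gal and 3.09, 2.54 and 2.47 RPKM with Aloxe3, with no overlap (log2 fold change 0.43, SE 0.089, limma adjusted p = 0.136), and passed only with voom on derived reads (adjusted p = 0.0125). Hgd, of tyrosine breakdown, was at 0.457 ± 0.074 and 0.674 ± 0.087 RPKM (log2 fold change 0.20, limma adjusted p = 0.34). Both were, like Cps1, genes of low level in these libraries.

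Of 14 tested regulators of urea cycle genes, 0 passed in limma and 2 had an unadjusted p under 0.05 with the higher level with Aloxe3, against 7.31% of all genes (median log2 fold change 0.063). With 1 library left out the count was 1 without β-gal replicate 1 or 2, 2 without Aloxe3 replicate 8, 3 without Aloxe3 replicate 9, 4 without Aloxe3 replicate 7 and 5 without β-gal replicate 3, all higher, beside 5.17% to 7.47% of all genes. Gcgr, the glucagon receptor, was at 4.19 ± 0.59 and 5.23 ± 0.35 RPKM (log2 fold change 0.27, limma adjusted p = 0.289). Foxa2, a transcription factor of the liver, was at 9.81 ± 0.43 and 11.8 ± 1.5 RPKM (log2 fold change 0.24, limma adjusted p = 0.297). Hnf4a and Cebpa, transcription factors of hepatocyte identity, differed by 0.03 and 0.06 (log2, limma adjusted p = 0.873 and 0.637).

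The markers of the lobule's zones gave 1 call. Of 10 tested periportal markers, 4 had a positive and 6 a negative log2 fold change. In limma 1 passed (0.394% of all genes), Hsd17b13, a lipid droplet enzyme. At an unadjusted p under 0.05 there were 2 higher, Hsd17b13 and Cps1, and 1 lower (7.31% and 5.42% of all genes). The lower was Cyp2f2, at 24.6 ± 1.3 and 22.5 ± 0.15 RPKM (limma unadjusted p = 0.0247, adjusted p = 0.324). With 1 library left out, 2 to 3 were higher and 0 to 1 lower (5.17% to 7.47% and 2.99% to 6.96% of all genes). Hsd17b13 was at 4.34, 5.15 and 4.75 RPKM with β-gal and rose to 8.76, 6.83 and 8.19 RPKM with Aloxe3 (log2 fold change 0.63, SE 0.088, adjusted p = 0.0382), and it lost the call in 9 of 13 alternatives (adjusted p up to 0.207, and 0.143 without Aloxe3 replicate 9). The list's median was -0.019, and its summed level was 4640 to 4690 RPKM with β-gal and 4510 to 4650 with Aloxe3, nearly all from Alb. Of 7 tested perivenous markers 0 passed in limma and 1 had an unadjusted p under 0.05, Lect2, which was lower with Aloxe3, as were 5.42% of all genes at that p (2.21 ± 0.14 and 1.66 ± 0.27 RPKM, adjusted p = 0.269). Next came Cyp27a1, at 25.5 ± 0.45 and 24.6 ± 0.70 RPKM (adjusted p = 0.599). That list's median was -0.037 and its sum 64.3 to 66.3 and 61.3 to 66.4 RPKM. With 1 library left out in turn, the perivenous markers at that p numbered 0 to 1 higher and 1 lower, the 1 higher being the member Glul, which is on this list, without Aloxe3 replicate 9 (7.46% of all genes).

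**Figure D4:**
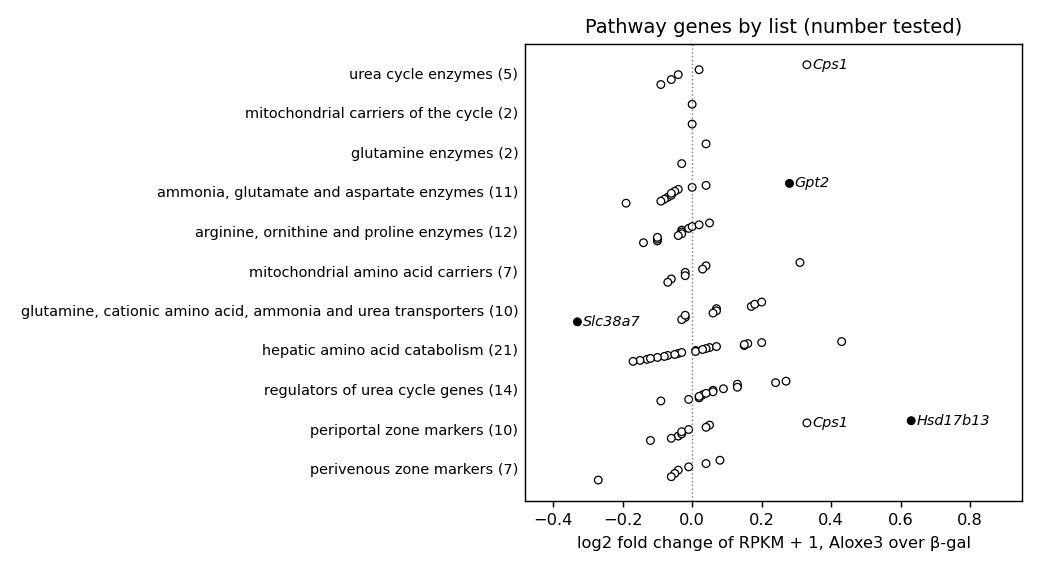
Log2 fold change of RPKM + 1, Aloxe3 over β-gal, for each tested gene of the lists (number tested in brackets), with a point for each gene and filled points past an adjusted p of 0.05; height within a list only keeps points apart. Gpt2, Slc38a7 and Hsd17b13 are filled, and most other points lie within 0.2 of 0, those of the members other than Cps1 (0.33) among them.

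Signs depended on the processing for 5 members with values near 0, Nags, Slc25a13, Slc25a15, Ass1 and Gls2. Cps1 was positive, and Otc and Asl negative, under each of the alternatives that gave them a value. Glul was positive in each. The plot of 4 members by planned setting shows the span, from 0.283 to 0.589 for Cps1, from -0.159 to -0.08 for Otc, from -0.054 to -0.027 for Asl and from 0.012 to 0.082 for Glul. The added voom fits with 1 library left out are not drawn, and gave 0.522 to 0.7 for Cps1.

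**Figure D5:**
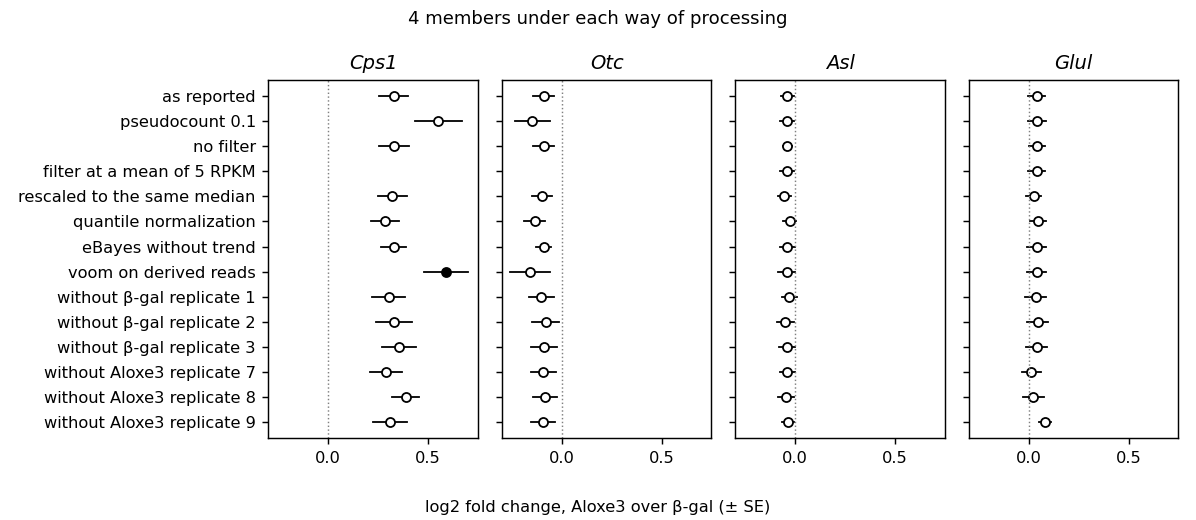
Log2 fold change (Aloxe3 over β-gal, ± SE) of Cps1, Otc and Asl, whose groups did not overlap, and of Glul, the highest member, under each planned way of processing. Voom with 1 library left out is not drawn. Filled points are past an adjusted p of 0.05, and a missing point means the gene's mean was under the filter. Only the voom fit of Cps1 (0.589) is filled.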

How the data were processed

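RNA-seq was read from 3 β-gal and 3 Aloxe3 libraries, grouped by their labels. The authors sequenced single reads of 50 bases from poly-A RNA without strand marking, aligned them with STAR 2.0.4b, counted uniquely aligned reads with featureCounts 1.4.5 (GRCm38.p2 per the labels) and deposited RPKM values; the step from counts to RPKM is not given in the sources used here. The RPKM were used as deposited. Their whole-read steps gave library sizes (25521908 to 32431318) and the reads per gene; 1 read on 1 kb is worth 0.0308 to 0.0392 RPKM. Symbols and coordinates are from GENCODE M21 (GRCm38); 40340 of 41388 identifiers matched.

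Every gene averaging 0.5 RPKM or more over the libraries (12693 genes) entered a limma fit (version 3.58.1, R 4.3.3) of log2(RPKM + 1) on the group, with moderated variances that followed the mean level (eBayes, trend), and p-values were adjusted by Benjamini-Hochberg, the threshold being 0.05. Scripts (Python 3.11.15) were tested on simulated data. The members and lists were chosen with earlier results of these data known. Named were Aloxe3, the members, the isoform Slc25a12, and from each functional or zone list the 2 of smallest adjusted p and any others past the threshold; Glud1, Hnf4a, Cebpa, Slc1a5, Slc38a3 and the markers named fall outside this rule and were picked with their values in view. The alternatives were a pseudocount of 0.1, no filter or one at 5 RPKM, equal medians, quantile normalization, no trend, voom on derived reads and leaving out each library; voom with each library left out was added after seeing the data. Windows of 50 bases shared between genes were searched for in the M21 transcripts. Some genes that the naming rule covers, 1 member among them, are not reported here.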

Additional observations from a re-analysis of the deposited data

How the results depend on the processing

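No paired analysis was possible because the groups share no replicate number (1, 2 and 3 against 7, 8 and 9). Over all genes, 50 passed as reported, 7 with no filter, 173 with voom and 6 to 19 with 1 library left out; of these calls 90.0% were higher with Aloxe3 as reported and 71.4% with no filter. Of the members 0 passed as reported and 1, Cps1, with voom, and again 1 in voom without β-gal replicate 3, Aloxe3 replicate 8 or Aloxe3 replicate 9. Of the related genes 3 passed as reported and 0 to 2 with 1 library left out. Values near 0 changed sign without nearing the threshold, and the cause was not tested: Nags (-0.006 with quantile normalization, -0.046 to 0.083 with 1 library left out), Slc25a13 (0.003 with quantile normalization, 0.001 with voom, -0.025 to 0.034 with 1 library left out), Slc25a15 (-0.049 to 0.052), Ass1 (-0.108 to 0.007) and Gls2 (-0.066 to 0.001). At a filter of 5 RPKM there is no value for Nags, Cps1 or Otc. Reads limit Otc (136 to 197 a library) and Cps1 (164 to 232). Aloxe3 passed throughout (3.93 to 4.62).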
